A study of Mus musculus with 6 samples.

Results

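The 9 genes followed here encode transcription factors of bile duct and liver progenitor cells: Sox9, Sox4, Onecut2, Klf5, Ehf, Elf3, Foxj1, Tbx3 and Cebpb. They were chosen by name, with earlier results of these data known, and every probe annotated to one of these symbols was read. This gave 19 probes for 9 genes, of 45281 probes on the array. All 9 genes had a probe above background on at least 1 array, and 6 of them had more than 1 probe.

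RNA was measured on 6 Illumina mouse arrays, 1 for each condition, with no replicate of any. DDB1 is the adaptor of a ubiquitin ligase, and its deletion in hepatocytes was used to make duct-like oval cells expand. EpCAM+ cells were sorted from the non-parenchymal fraction of the liver with an antibody to the epithelial adhesion molecule EpCAM. They came from DDB1F/F;Alb-Cre+/+ mice (Alb-Cre+/+, 4 weeks old), DDB1F/F;Alb-Cre+/- mice (Alb-Cre+/-, 6 weeks old) and adult DDB1F/F;MX1-Cre+/- mice (MX1-Cre). They also came from wild type mice fed 3,5-diethoxycarbonyl-1,4-dihydro-collidine, a chemical toxic to the liver (DDC). Hepatocytes came from DDB1F/F;Alb-Cre+/+ mice (mutant hepatocytes) and from wild type mice. All mice were of a mixed C57BL/6 x 129 background. Alb-Cre is driven by the hepatocyte albumin promoter, while Mx1-Cre is switched on by interferon, here after poly(I:C), in many cell types. Whether the sorted cells carried the deletion was not measured on these arrays. By staining, the study found DDB1 in duct-like cells of Alb-Cre+/+ liver. It also describes oval cells of the Mx1-Cre model as expressing DDB1. The study's methods also stained the sorted fraction for F4/80, the macrophage antigen encoded by Adgre1, and its text describes a gate against F4/80 for DDB1F/F;Alb-Cre+/+ liver. Whether the cells on the other EpCAM+ arrays passed that gate is not given in the sources used here. Age is given only for the Alb-Cre EpCAM+ arrays, and the number of animals behind an array is not given in the sources used here, so age, animal and condition cannot be told apart.

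Signals are the quantile-normalized intensities of the deposited table, and a probe is called above background where its detection p was under 0.05. Between 11429 probes (wild type hepatocytes) and 17152 (DDC) passed. The lowest normalized signal above background was 159 in wild type hepatocytes and 110 to 119 on the other arrays, so dim probes are read less well on the wild type array. Ddb1 read 205 to 317 in EpCAM+ cells, and 169 in mutant hepatocytes against 499 in wild type hepatocytes. Epcam, the gene of the sort antigen, was dim: it read 126 in Alb-Cre+/+, 162 in MX1-Cre and 177 in DDC EpCAM+ cells, and was not above background in Alb-Cre+/- EpCAM+ cells or on either hepatocyte array. The labels name the tissue as mammary, but none of 12 mammary epithelium markers was above background on any array. Cholangiocyte markers marked the EpCAM+ arrays instead: their summed signal was 102723 to 123080 in EpCAM+ cells against 9075 to 33566 in hepatocytes, and that of hepatocyte markers was 24825 to 97569 in EpCAM+ cells against 362432 to 456592 in hepatocytes. In such bulk samples fewer cells of a type and less RNA per cell cannot be told apart.

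Hepatocytes and cholangiocytes, the epithelial cells that line the bile ducts, descend from a common embryonic progenitor, the hepatoblast. SOX9 and SOX4, the Onecut factors and Notch signalling drive hepatoblasts towards the duct, whereas TBX3 and CEBP factors belong to the hepatoblast and hepatocyte programme. KLF5, EHF and ELF3 are epithelial factors, and FOXJ1 is the master regulator of motile cilia. After injury, duct-like oval cells appear that carry many duct markers.

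RefSeq promoters are shown for Elf3, Sox4 and Cebpb, the 3 members that the search returned. That search did not cover every chromosome, so a promoter of another member may have been missed. None of the 3 genes passed the test between EpCAM+ cells and hepatocytes below. Each run holds the 250 bases before the transcription start in GRCm38.p6, read in the direction of the gene, with capitals for the letters of 4 motifs on either strand: TGGGAA (core of RBPJ sites, the DNA-binding partner of Notch), GGAATG (core of TEAD sites, the partners of YAP), CCAAT, which NFY binds, and the core promoter box TATAAA.
Elf3, chr1:135258473-135258722, minus strand: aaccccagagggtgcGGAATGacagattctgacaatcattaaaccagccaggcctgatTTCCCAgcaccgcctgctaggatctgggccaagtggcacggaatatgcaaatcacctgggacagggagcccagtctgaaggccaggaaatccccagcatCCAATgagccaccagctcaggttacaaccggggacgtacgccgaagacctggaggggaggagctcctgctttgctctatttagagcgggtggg
Sox4, chr13:28953700-28953949, minus strand: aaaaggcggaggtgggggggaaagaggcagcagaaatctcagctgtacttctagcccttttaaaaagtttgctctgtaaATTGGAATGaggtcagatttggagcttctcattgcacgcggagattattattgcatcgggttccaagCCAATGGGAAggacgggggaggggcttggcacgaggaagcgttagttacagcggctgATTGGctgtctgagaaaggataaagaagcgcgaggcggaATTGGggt
Cebpb, chr2:167688665-167688914, plus strand: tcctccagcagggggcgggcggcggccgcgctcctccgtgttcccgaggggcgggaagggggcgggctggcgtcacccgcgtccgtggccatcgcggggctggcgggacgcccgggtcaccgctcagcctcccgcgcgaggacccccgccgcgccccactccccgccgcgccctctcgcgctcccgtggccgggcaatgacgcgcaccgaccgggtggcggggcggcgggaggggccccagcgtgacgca
The Elf3 run held 1 TGGGAA on the opposite strand, 1 GGAATG and 1 CCAAT. The Sox4 run held 1 TGGGAA, 1 GGAATG and 4 CCAAT, 3 of them on the opposite strand; its CCAAT and TGGGAA overlap by 1 base at 100 bases before the start, and a CCAAT on the opposite strand overlaps GGAATG. The Cebpb run held none of the 4 motifs, and its GC content was 81.6%, against 57.2% for Elf3, 50.8% for Sox4 and a median of 52.4% over all promoters. Over the 32851 promoters of the table, 21.6% held TGGGAA, 12.6% GGAATG, 33.8% CCAAT and 12.4% the TATAAA box in the same window. A match of letters is not a bound site, and no binding was measured here.

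The plot of signals by array shows the 9 genes, each at its brightest probe.

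**Figure D1:**
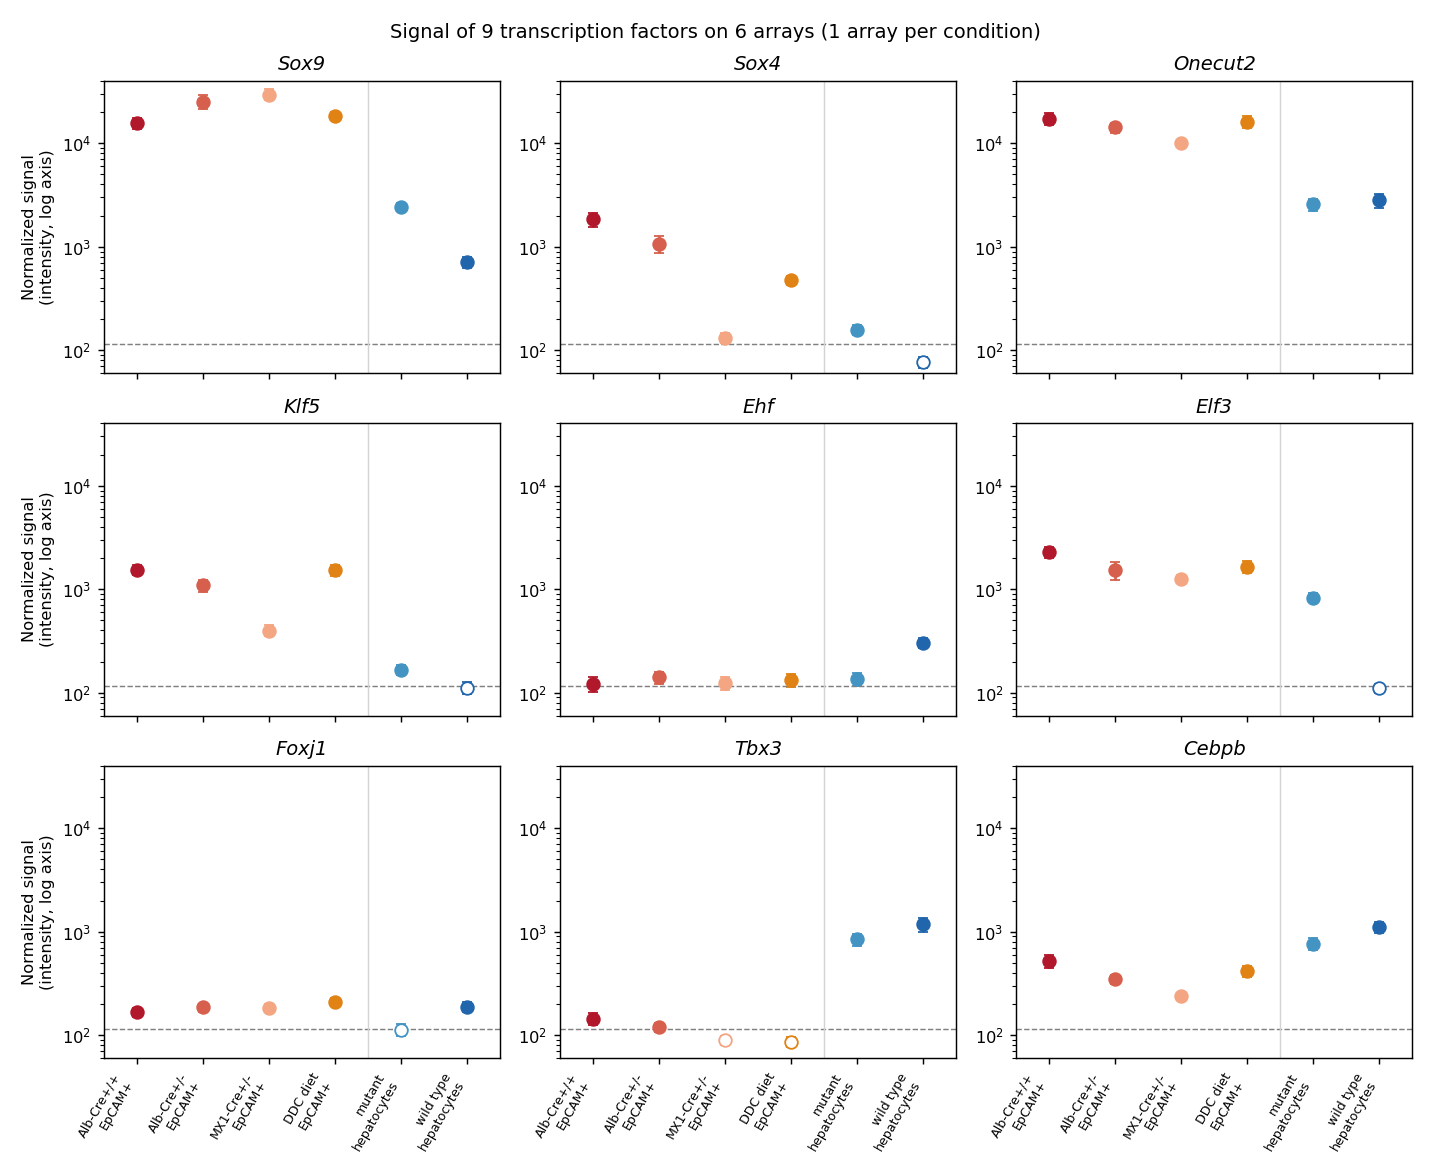
Normalized signal (log axis) of each gene's brightest probe on the 6 arrays, 4 of EpCAM+ cells left of the grey line and 2 of hepatocytes right of it; bars are 95% intervals from the standard error over beads, open circles are not above background and the dashed line is the floor of 115. Sox9, Onecut2, Klf5 and Elf3 read higher on all 4 EpCAM+ arrays than on both hepatocyte arrays, and Tbx3 and Cebpb lower.

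The first question was which of these factors separated EpCAM+ cells from hepatocytes. Sox9 and Onecut2 rose in EpCAM+ cells and Tbx3 fell, and the direction held on every array. limma compared the 4 EpCAM+ arrays with the 2 hepatocyte arrays over 21827 probes. As no condition has a replicate, the error is the spread between mouse models and not between replicates. Of the 16 member probes tested, 3 were called higher (2 genes) and 2 lower (1 gene), where 2.7% of all probes tested were called higher and 4.36% lower. At an unadjusted p under 0.05 there were 9 of the 16 member probes, against 4966 of the 21827 probes tested. Groups that did not overlap gave 6 member probes above and 3 below, against 19% and 15.5% of all probes tested. The median log2 difference was 0.53 over the 16 member probes and 0.01 over all probes.

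Sox9, the factor that marks the ductal plate and adult ducts, had the largest log2 difference of the 9 genes. Its main probe read 15748 in Alb-Cre+/+ and 25249 in Alb-Cre+/- EpCAM+ cells, 29639 in MX1-Cre and 18374 in DDC EpCAM+ cells, and 2435 in mutant and 705 in wild type hepatocytes. All EpCAM+ arrays lay above both hepatocyte arrays, and the EpCAM+ arrays themselves spanned 1.88-fold. The log2 difference was 4.04 ± 0.56 (SE, n = 4 and 2 arrays; limma adjusted p = 0.02). A second Sox9 probe read 976, 2642, 3508 and 1690 in the same order of EpCAM+ arrays, and 300 in mutant hepatocytes against a signal not above background in wild type hepatocytes. It ranked the 6 arrays in the same order as the first (log2 difference 3.39 ± 0.64, adjusted p = 0.043). The Sox9 call did not hold without every EpCAM+ array: at the main probe the adjusted p was 0.065 without MX1-Cre, 0.051 without DDC, 0.067 without Alb-Cre+/- and 0.053 without Alb-Cre+/+, and 0.065 when dim probes were not left out.

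Onecut2, which acts with its relative Onecut1 in duct formation, rose with little spread between arrays. It read 17236 in Alb-Cre+/+ and 14275 in Alb-Cre+/- EpCAM+ cells, 9966 in MX1-Cre and 16059 in DDC EpCAM+ cells, against 2563 in mutant and 2805 in wild type hepatocytes. The 4 EpCAM+ arrays stayed within 1.73-fold of each other and well above the hepatocyte arrays, which were almost level. The log2 difference was 2.39 ± 0.26 (adjusted p = 0.011), and it was called under every alternative tried. A dim second probe (235, 349, 167 and 259 in the EpCAM+ arrays) was not above background in either hepatocyte array, which bounds the rise there at 1.81-fold or more (adjusted p = 0.15). The remaining Onecut2 probe was not above background on any array.

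Klf5, a factor of proliferating epithelia, read 1547 in Alb-Cre+/+ and 1088 in Alb-Cre+/- EpCAM+ cells, 399 in MX1-Cre and 1528 in DDC EpCAM+ cells, against 167 in mutant hepatocytes and no signal above background in wild type hepatocytes. The groups did not overlap, but the MX1-Cre array lay far below the other EpCAM+ arrays. The log2 difference of 2.86 ± 0.63 missed the threshold (adjusted p = 0.061), and it passed without the MX1-Cre array (adjusted p = 0.036) and under 5 other settings.

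Elf3, an epithelial Ets factor, read 2270 in Alb-Cre+/+ and 1538 in Alb-Cre+/- EpCAM+ cells, 1253 in MX1-Cre and 1646 in DDC EpCAM+ cells at its brightest probe. Mutant hepatocytes gave 830, while wild type hepatocytes were not above background. The EpCAM+ arrays lay above both hepatocyte arrays, and the hepatocyte arrays lay far apart. The log2 difference was 2.41 ± 0.80 (adjusted p = 0.15), and without mutant hepatocytes it was 3.83 (adjusted p = 0.007). A second Elf3 probe gave 655, 293, 249 and 573 in the EpCAM+ arrays, and 240 in mutant against 250 in wild type hepatocytes. There the groups overlapped (log2 difference 0.73 ± 0.49, adjusted p = 0.43), so the Elf3 probes disagreed on both the size of the EpCAM+ difference and the mutant hepatocytes.

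Sox4, which works beside SOX9 in duct formation, varied most among EpCAM+ cells. Its readable probe gave 1853 in Alb-Cre+/+ and 1069 in Alb-Cre+/- EpCAM+ cells, 131 in MX1-Cre and 473 in DDC EpCAM+ cells, against 158 in mutant hepatocytes and no signal above background in wild type hepatocytes. The MX1-Cre array lay below the mutant hepatocytes, so the groups overlapped (log2 difference 2.14 ± 1.10, adjusted p = 0.34). The highest EpCAM+ array was 14.1-fold above the lowest, the widest span of the 9 genes at their brightest probes.

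Ehf, the closest relative of Elf3 among the 9, was dim throughout. It read 122 in Alb-Cre+/+ and 141 in Alb-Cre+/- EpCAM+ cells, 125 in MX1-Cre and 133 in DDC EpCAM+ cells, and 135 in mutant against 305 in wild type hepatocytes. Only the wild type array stood apart (log2 difference -0.64 ± 0.33, adjusted p = 0.33). Before normalization the Ehf signals were 105.4, 143.5, 122 and 165.5 in the EpCAM+ arrays, and 149.8 in mutant against 152 in wild type hepatocytes. These signals cannot be set directly against each other, as the arrays differ in brightness. Mean signal before normalization was 378.4 in wild type and 712.8 in mutant hepatocytes. The detection p of Ehf, computed within each array before normalization, was 0 in wild type hepatocytes. It was 0.0085 in mutant hepatocytes and 0.0011 to 0.043 on the EpCAM+ arrays.

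Foxj1 was dim as well. It read 166 in Alb-Cre+/+ and 185 in Alb-Cre+/- EpCAM+ cells, 183 in MX1-Cre and 210 in DDC EpCAM+ cells, and was not above background in mutant hepatocytes but read 188 in wild type hepatocytes. No group stood apart (log2 difference 0.34 ± 0.25, adjusted p = 0.47). Before normalization wild type hepatocytes gave 118.7 and DDC EpCAM+ cells 305.8.

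**Figure D2:**
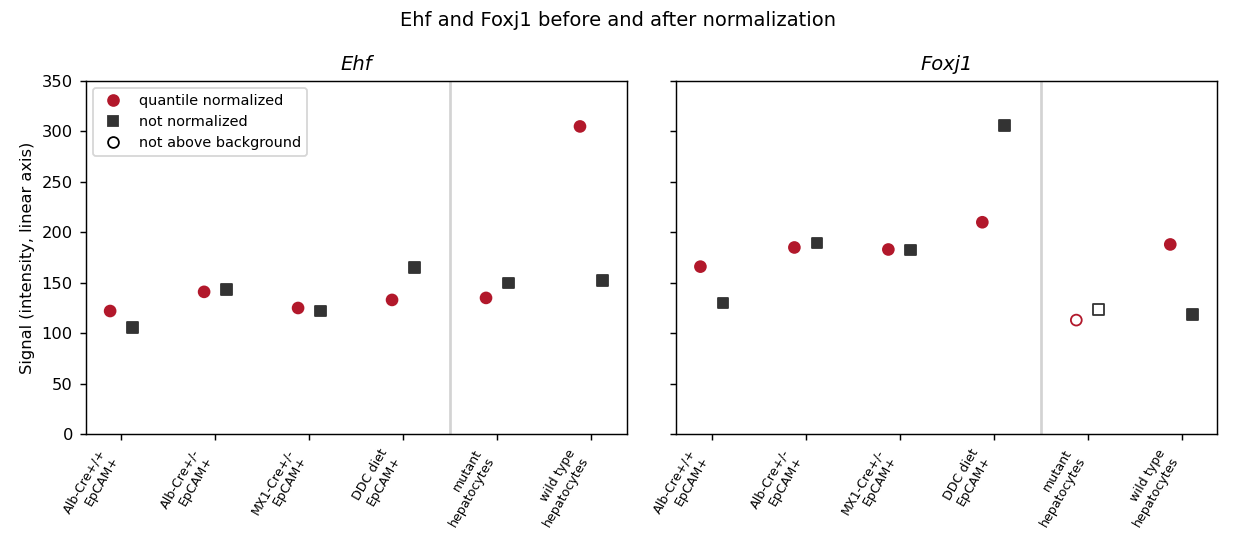
Signals of Ehf and Foxj1 (linear axis) on the 4 EpCAM+ and 2 hepatocyte arrays, after quantile normalization (red circles) and before it (dark squares); open symbols are not above background. The wild type Ehf signal is 305 after normalization and 152 before it.

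Tbx3, which keeps hepatoblasts from the duct fate, was the member that fell. It read 143 in Alb-Cre+/+ and 119 in Alb-Cre+/- EpCAM+ cells, was not above background in MX1-Cre or DDC EpCAM+ cells, and read 842 in mutant and 1177 in wild type hepatocytes. All EpCAM+ arrays lay far below both hepatocyte arrays (log2 difference -3.02 ± 0.28, adjusted p = 0.0077). A second Tbx3 probe was not above background on any EpCAM+ array and read 273 in each hepatocyte array. That is at least 2.4-fold lower in EpCAM+ cells (limma adjusted p = 0.0055). Its EpCAM+ values all lay at the floor and its hepatocyte values were equal, so that p holds no spread of the probe's own. The main Tbx3 probe was called under every alternative. The other Tbx3 probes were above background on at most 1 array each.

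Cebpb, a factor of hepatocyte growth and the acute phase response, read 517 in Alb-Cre+/+ and 347 in Alb-Cre+/- EpCAM+ cells, 237 in MX1-Cre and 415 in DDC EpCAM+ cells, against 761 in mutant and 1107 in wild type hepatocytes. Every EpCAM+ array lay below both hepatocyte arrays, but the difference did not pass the test (log2 difference -1.33 ± 0.37, adjusted p = 0.11).

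**Figure D3:**
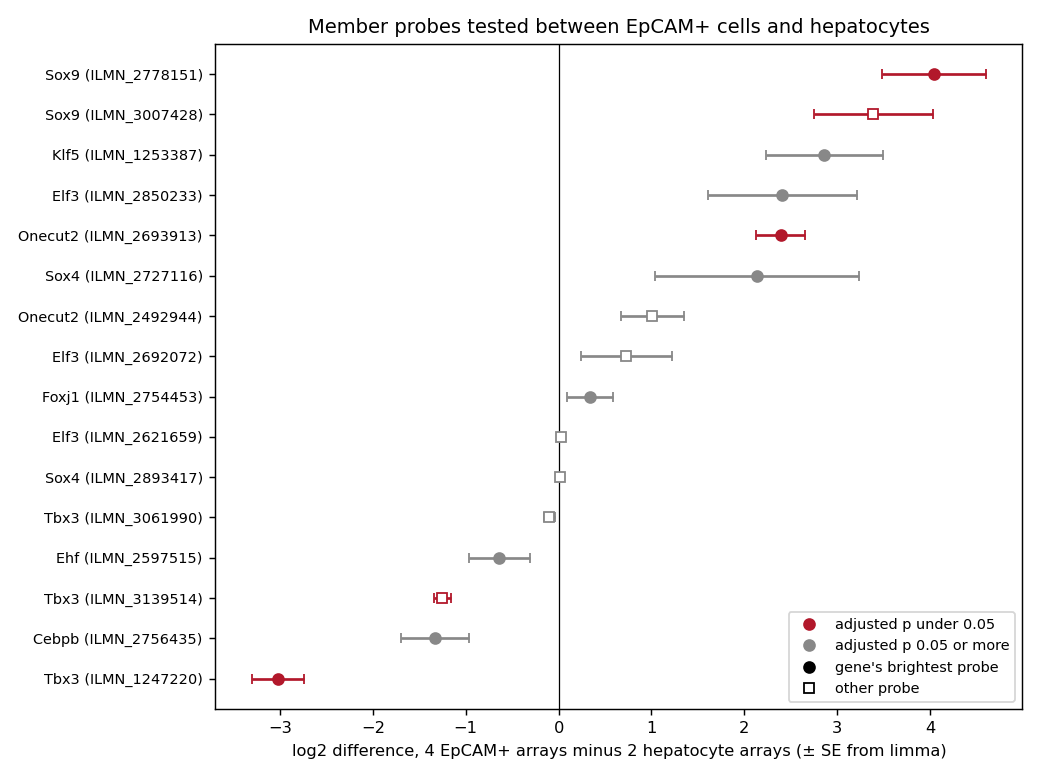
Log2 difference (EpCAM+ minus hepatocytes, bars ± SE from limma, n = 4 and 2 arrays) of the 16 member probes tested; red probes have an adjusted p under 0.05, filled circles are each gene's brightest probe. Both Sox9 probes and the main Onecut2 probe lie to the right (4.04, 3.39 and 2.39) and 2 Tbx3 probes to the left (-3.02 and -1.25).

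Set against wild type hepatocytes alone, each EpCAM+ array can be compared only as 1 array with another, with no test. In Alb-Cre+/+ EpCAM+ cells, 5 of the 9 genes were over 2-fold higher (Sox9, Sox4, Onecut2, Klf5 and Elf3) and 3 lower (Ehf, Tbx3 and Cebpb), where 19.1% and 17.2% of 10175 genes were. DDC gave the same 5 and 3, beside 17.8% and 15.6% of all genes, and so did Alb-Cre+/-, beside 17.8% and 15%. In MX1-Cre the count was 4 higher, without Sox4, and 3 lower, beside 18.3% and 14.7%. These comparisons share the wild type array. At its brightest probe the Elf3 difference was at least 14.3-fold in Alb-Cre+/+ and at least 7.87-fold in MX1-Cre, the highest and lowest of the 4. The second Elf3 probe, above background on every array, differed less from wild type hepatocytes. Its ratio was 2.62 for Alb-Cre+/+, 2.29 for DDC, 1.17 for Alb-Cre+/- and 0.995 for MX1-Cre. Counting Elf3 as over 2-fold higher in Alb-Cre+/- or MX1-Cre therefore rests on the brightest probe. For Tbx3 the signal was 8.24-fold lower in Alb-Cre+/+ and at least 10.7-fold lower in DDC. Ehf was 2.17- to 2.49-fold lower on the EpCAM+ arrays, but under 2-fold lower (log2 -0.93 to -0.69) once arrays were scaled by their medians.

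The second question was whether the factors differed between the hepatocyte arrays, that is, in DDB1 mutant against wild type hepatocytes. Sox9 and Elf3 were over 2-fold higher and Ehf lower in the mutant, of 9 genes, where 9.43% of 10152 genes were higher and 8.53% lower. Sox9 was 3.45-fold higher (95% interval from beads 2.96 to 4.02). The bead intervals do not cover the choice of scaling. Elf3 was at least 5.21-fold higher at its brightest probe, but 0.96-fold at the second. Onecut2 was at 0.914-fold (interval 0.75 to 1.11). For Klf5 and Sox4, which were not above background in wild type hepatocytes, whether 2-fold was passed cannot be read: Klf5 was at least 1.05-fold higher, and 3 members in place of 2 were over 2-fold higher with a floor at 1. Cebpb was 1.45-fold and Tbx3 1.4-fold lower, but with median scaling both turned (log2 0.17 and 0.23), as did Onecut2 (0.41). Markers of several other cell types were also higher there. For cholangiocytes 14 of 15 were above background in mutant hepatocytes (summed signal 33566) and 6 of 15 in wild type hepatocytes (9075). For endothelium it was 17 of 18 (21493) against 10 of 18 (4730), for stellate cells and fibroblasts 11 of 15 (17118) against 4 of 15 (3136), and for macrophages 11 of 12 (12029) against 7 of 12 (2410). Krt19, a keratin of duct cells, read 457 in mutant hepatocytes and was not above background in wild type hepatocytes, and Epcam was not above background in either. The part of these cells in the Sox9 and Elf3 differences was not tested.

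Within the Alb-Cre+/+ genotype, EpCAM+ cells were over 2-fold above hepatocytes in 5 of 9 genes and below in 1, beside 14.6% and 12.8% of 10894 genes. Sox4 was 11.7-fold higher (interval 9.71 to 14.1), Klf5 9.24-fold, Onecut2 6.72-fold, Sox9 6.47-fold and Elf3 2.74-fold. Tbx3 was 5.9-fold lower. The second Elf3 probe gave 2.73-fold here.

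The third question was how EpCAM+ cells of the DDB1 mutants compared with those of the DDC diet. limma set the 3 mutant EpCAM+ arrays against DDC. That side holds a single array, whose spread was taken to be that of the other groups. Here none of the 16 member probes was called and none had an unadjusted p under 0.05. Over all probes, 0.0229% were called higher and 1.92% lower. The difference was 0.31 ± 0.83 for Sox9, -0.25 ± 0.36 for Onecut2, 0.43 ± 1.66 for Sox4 and -0.80 ± 0.87 for Klf5 (log2, SE), so a 2-fold change lies within 1 SE of the estimate for Sox9, Sox4 and Klf5.

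Array by array the mutants did not go one way. Sox4 was 3.92-fold higher than DDC in Alb-Cre+/+ (interval from beads 3.24 to 4.74) and 2.26-fold higher in Alb-Cre+/- (1.84 to 2.79), but 3.61-fold lower in MX1-Cre (3.1 to 4.2). Sox4 was the only member over 2-fold from DDC in either Alb-Cre array, 1 of 9 genes higher, beside 7.8% of 10964 genes in Alb-Cre+/+ and 5.76% of 11054 in Alb-Cre+/-. None was lower, beside 7.81% and 4.59%. With median scaling the Sox4 difference was 2.58-fold in Alb-Cre+/+ and 1.8-fold in Alb-Cre+/-. In MX1-Cre, Sox4 and Klf5 were over 2-fold lower than in DDC, 2 of 9 genes beside 4.69% of 10863, and no member was higher, beside 5.16%. Klf5 was 3.83-fold lower (3.21 to 4.56) in MX1-Cre, but 1.01-fold of DDC in Alb-Cre+/+ (0.851 to 1.2). Sox9 went the other way, 1.61-fold higher in MX1-Cre than in DDC (1.38 to 1.88). These counts are at brightest probes and depend on the probe. In MX1-Cre the second Sox9 probe was 2.08-fold higher than in DDC (1.77 to 2.44). The second Elf3 probe was 2.3-fold lower there (1.93 to 2.74). Bead intervals cover the error of reading 1 array and not that between mice.

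**Figure D4:**
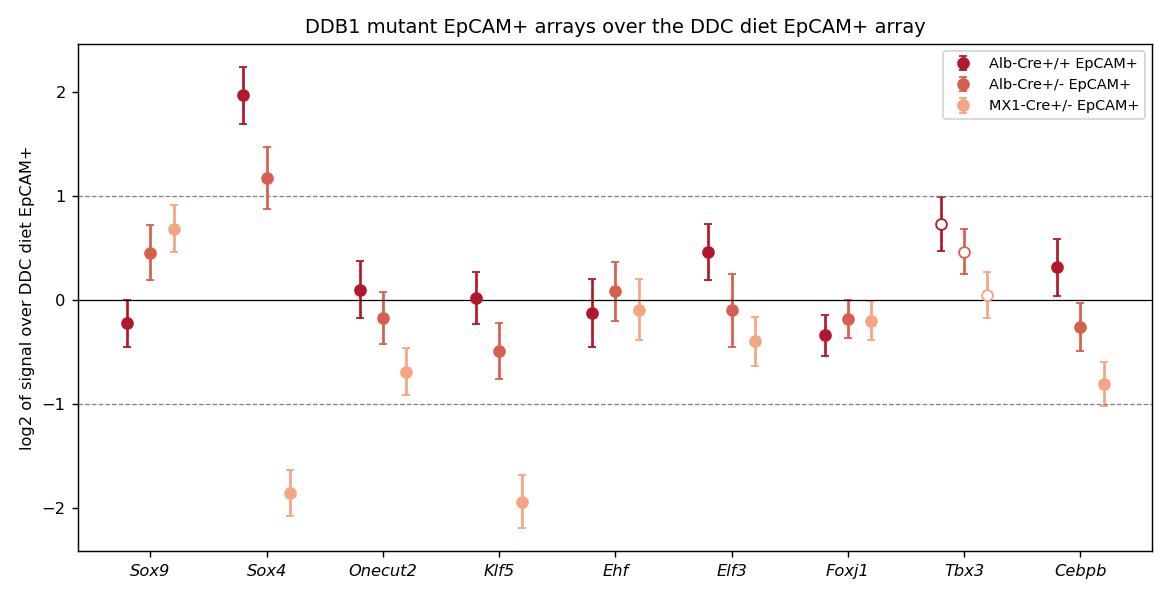
Log2 of each DDB1 mutant EpCAM+ array's signal over the DDC EpCAM+ array for the 9 genes at their brightest probes, with 95% intervals from the standard error over beads; open circles have a signal not above background on a side and dashed lines mark 2-fold. Sox4 lies above the upper line in both Alb-Cre mutants and below the lower line in MX1-Cre, as Klf5 does.

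MX1-Cre was the lowest of the 4 EpCAM+ arrays for 5 of the 9 genes (Sox4, Onecut2, Klf5, Elf3 and Cebpb) and the highest for Sox9. It was the lowest for 22% of 11777 genes. Alb-Cre+/+ was the highest for 6 of 9 (Sox4, Onecut2, Klf5, Elf3, Tbx3 and Cebpb), beside 29% of genes. It was the lowest for the other 3 (Sox9, Ehf and Foxj1), beside 31.8% of genes. For Onecut2 the Alb-Cre+/+ and DDC arrays did not differ beyond their bead error (1.07-fold, 0.887 to 1.3), nor did Klf5. With median scaling, Onecut2, Klf5, Elf3 and Cebpb read lower in Alb-Cre+/+ than in DDC (log2 -0.36, -0.57, -0.15 and -0.16), so the order of these arrays depends on the scaling. Markers of some other cells were also lowest in MX1-Cre, by summed signal. Lymphocyte and neutrophil markers were above background for 1 of 15 genes in MX1-Cre (summed signal 128), against 5 to 8 of 15 in the other EpCAM+ arrays (1114 to 1439), although Ptprc, the pan-leukocyte antigen, was not above background on any array. Macrophage markers were above background for 6 of 12 genes in Alb-Cre+/+, MX1-Cre and DDC alike and for 11 of 12 in Alb-Cre+/-. Among the EpCAM+ arrays, Adgre1 was above background only in Alb-Cre+/- (664). Summed macrophage signal was 4387 in MX1-Cre, against 11407 in Alb-Cre+/+, 17050 in Alb-Cre+/- and 13381 in DDC. Cd14, a receptor for bacterial lipopolysaccharide, was the largest single part of each sum, at 2808 in MX1-Cre, against 8545 in Alb-Cre+/+, 5856 in Alb-Cre+/- and 11499 in DDC. Endothelial, stellate cell and erythroid markers were not lowest in MX1-Cre. Summed endothelial signal was 22230 in MX1-Cre, against 29705 in Alb-Cre+/+, 39510 in Alb-Cre+/- and 3805 in DDC. In the same order it was 11823, 8107, 21307 and 4056 for stellate cells and fibroblasts. For erythroid markers it was 1123, 404, 2220 and 238. The part of any of these cells in the Sox4 and Klf5 values was not tested.

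The genes with the most similar pattern over the 6 arrays, among 12282 genes, differed from member to member. Similarity was the root mean square difference of log2 signal, with each gene centred on its own mean over the arrays. Gas6, a TAM receptor ligand, lay nearest Sox9 (0.16), Nectin2, a cell adhesion molecule, nearest Onecut2 (0.11) and Igfbp7, a secreted IGF-binding protein, nearest Elf3 (0.18). Klf7, another Krüppel-like factor, lay nearest Sox4 (0.32) and read 2269 in Alb-Cre+/+ and 1801 in Alb-Cre+/- EpCAM+ cells, 260 in MX1-Cre and 707 in DDC EpCAM+ cells. Cd44, a hyaluronan receptor, and Edn1, the endothelin peptide, lay nearest Klf5 (0.39 and 0.40). Only 5 genes lay within 0.5 of Sox4 and 14 of Klf5, against 182 of Onecut2, 4599 of Ehf and 6878 of Foxj1, whose signals varied little.

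Other factors of the same programme were read from a list of 45 further biliary and progenitor factors, 33 of which were tested. Over all probes 2.7% were called higher and 4.36% lower, and at 1 probe a gene 583 and 685 of 12283 were. The median log2 difference of the 33 was 0.79, against 0.01 over all probes and 0.03 at 1 probe a gene. Of the 33, 5 rose in EpCAM+ cells and 1 fell. The 5 were Gata6, an endoderm factor (log2 2.82, adjusted p = 0.023), Tfcp2l1, a grainyhead-like factor (2.43, 0.044), Foxa1, a pioneer factor (2.25, 0.049), Glis3, a zinc finger factor of ducts (2.08, 0.021), and Id2 (1.38, 0.014), an inhibitor of bHLH factors. Foxa3, a forkhead factor of hepatocytes, was the one that fell (-1.78, 0.019). Hes1, the Notch target, read 1537 in Alb-Cre+/+ and 2376 in Alb-Cre+/- EpCAM+ cells, 1829 in MX1-Cre and 8026 in DDC EpCAM+ cells, against 337 in mutant and 157 in wild type hepatocytes, and missed the threshold (3.56, 0.057). Yap1 itself read 968 to 1572 in EpCAM+ cells, against 1128 and 1481 in hepatocytes (0.02, 0.99). Of 13 hepatocyte factors tested, 4 fell and none rose: Nr1i3, the nuclear receptor CAR (-4.66, 0.0055), Creb3l3 (-3.39, 0.027), Nr1h3 (-2.83, 0.0086) and Rxra (-1.95, 0.012). Their median was -1.62.

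None of 8 Sox, 11 Klf, 12 Ets and 5 Cebp relatives tested was called in either direction, with medians of 0.14, 0.38, 0.44 and -0.34. Over all probes 2.7% were called higher and 4.36% lower, so a count of 0 in lists of this size is near the background and says little of these families. Klf6, an early response factor, was low in MX1-Cre like Klf5 and Sox4: it read 5577 in Alb-Cre+/+ and 2115 in Alb-Cre+/- EpCAM+ cells, 491 in MX1-Cre and 2432 in DDC EpCAM+ cells, against 698 in mutant hepatocytes and no signal above background in wild type hepatocytes (2.77, 0.25). Klf4 was not, at 590, 526, 1055 and 1622 in the same EpCAM+ arrays. Ets2 read 14119 to 20997 in EpCAM+ cells, against 10942 in mutant and 1712 in wild type hepatocytes (2.02, 0.19). Cebpa was above background only in mutant hepatocytes (118), so its probe says little of this hepatocyte factor. Of 7 Foxj and Tbx relatives tested, Foxj3 was called higher (adjusted p = 0.045) and Tbx6 lower (-0.18, 0.021), although Tbx6 was above background on 1 array only.

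Motile cilia genes, the targets of FOXJ1, were mostly dim. Of 33 with a probe, the number above background was 12 for Alb-Cre+/+, 15 for Alb-Cre+/-, 12 for MX1-Cre and 18 for DDC EpCAM+ cells, and 10 in mutant and 6 in wild type hepatocytes. Of 22 tested, Rsph9, a radial spoke protein, rose (2.73, adjusted p = 0.0076), while Dnaic1, a dynein intermediate chain, fell (-2.71, 0.0059). With 2.7% of all probes called higher and 4.36% lower, 1 call each way is near the background and says little of cilia genes. Dnaic1 read 814 in mutant and 697 in wild type hepatocytes and was not above background on any EpCAM+ array. In the comparison of mutants with DDC, 1 cilia gene passed, Dynlrb2, a dynein light chain (-0.67, 0.016). It read 123 in Alb-Cre+/-, was not above background in Alb-Cre+/+ or MX1-Cre and read 187 in DDC, so the call sets a single array against values at or near the floor. No probe of that comparison was called with a floor at 1 or with median scaling. The median over the cilia genes was 0.34 between EpCAM+ cells and hepatocytes and -0.28 between mutants and DDC.

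**Figure D5:**
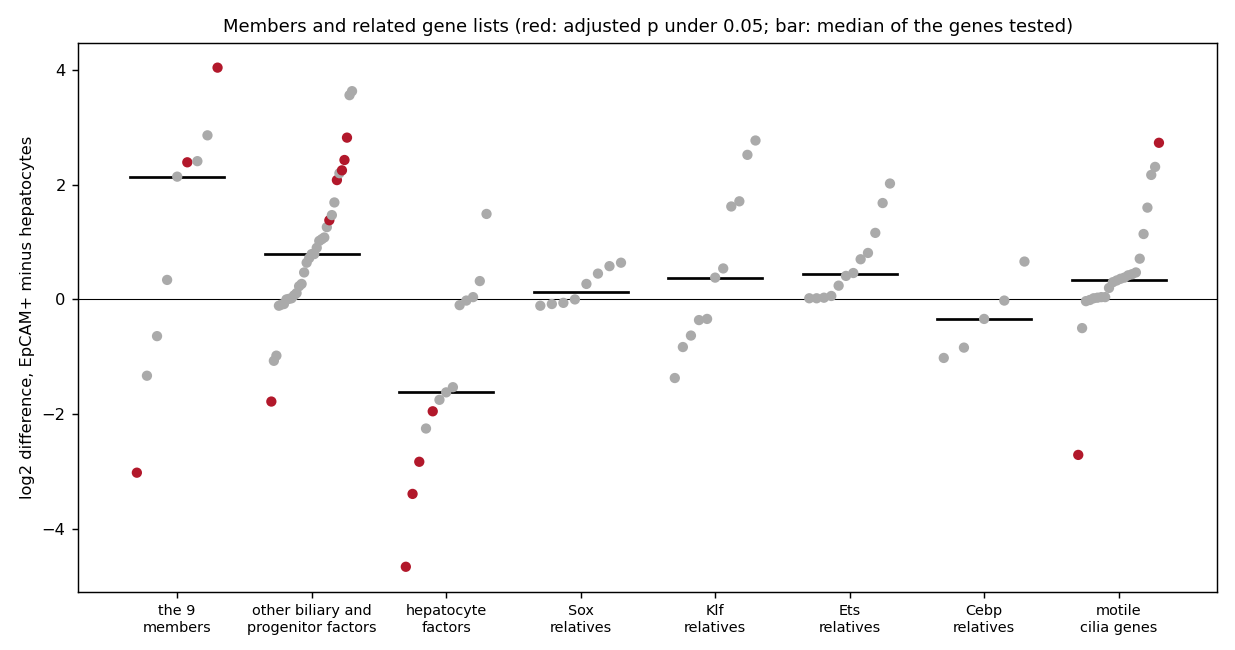
Log2 difference (EpCAM+ minus hepatocytes) of each gene tested in the 9 members and in 7 related lists, with red for an adjusted p under 0.05 and a bar at each list's median. The members spread from -3.02 to 4.04, and none of the Sox, Klf, Ets or Cebp relatives is red.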

How the data were processed

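RNA of 4 EpCAM+ and 2 hepatocyte samples was read on Illumina MouseWG-6 v2 arrays. The authors deposited signal intensity per probe without normalization, with a detection p-value against negative controls, the standard error over beads and the bead number, and a second intensity table that the authors quantile normalized. Each column of that table ranked its own array's probes as the raw signals did (Spearman 1 on all 6). Probe intensities of members rest on 25 to 69 beads (standard error 3.91 to 10.4% of the signal). The platform annotation gives 1 symbol for 34885 probes, several for 18 and none for 10378.

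Normalized signals were raised to a floor of 115 (the median of the arrays' lowest signals above background) and taken to log2. limma 3.58.1 in R 4.3.3 (lmFit, eBayes with trend) tested the 21827 probes that were above background on 1 array or more (detection p under 0.05), with Benjamini-Hochberg adjustment over all of them and a threshold of 0.05. At the floor, dim probes have little spread. An exact test of 4 against 2 arrays has 15 splits and cannot reach 0.05. A fold between 2 arrays against a signal not above background is a lower bound, taken against the higher of that signal and the lowest above background on that array. A gene was read at its brightest probe by mean log2 signal. Summed marker signals are over probes above background.

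The members and lists were chosen with earlier results of these data known. Named genes are all members, the called genes with the largest differences of each list, relatives of the members, the nearest patterns and markers that moved with a member. Hes1 and Yap1 were added after their values were seen. Promoters are from RefSeq, and 3 of the 9 members matched in a search that did not cover every chromosome. Alternatives were own quantile normalization, median scaling, normexp with an offset of 16, a floor at 1, other detection filters, eBayes without trend, array weights, 1 probe a gene, the mean of all probes and each array left out.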

Additional observations from a re-analysis of the deposited data

Results flagged for a closer look

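Among the 4 EpCAM+ arrays, the 16 member probes tested were checked for 1 array lying far from the other 3, by Dixon's ratio of its gap to the range against its 95% critical value, which chance passes in about 1 of 20 groups. The main Tbx3 probe passed with 0.839, highest in Alb-Cre+/+ (143, against 119 in Alb-Cre+/- and no signal above background in MX1-Cre or DDC). A dim Elf3 probe passed with 1, as it was above background only in Alb-Cre+/+ (124) and the other 3 arrays lay at the floor of 115. The 4 arrays differ in genotype, diet and age and are not replicates, and the floor sets the gap of such dim probes.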

How the results depend on the processing

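Onecut2 was called higher and Tbx3 lower under every alternative, each array left out included. Sox9 was lost with no detection filter and without any 1 of the 4 EpCAM+ arrays at its main probe. Klf5 passed with median scaling, normexp, a floor at 1, 1 probe a gene, probes detected on every array of 1 group (the group filter) and without MX1-Cre (adjusted p = 0.01 to 0.045), and Elf3 with the group filter (0.039). Without mutant hepatocytes, Elf3 (3.83, adjusted p = 0.007) was called higher and Ehf (-1.23, 0.005) lower. Of the log2 differences of member probes, 214 kept their sign and their side of the threshold, while 13 lost and 10 gained a call. Size was not part of this count: the main Elf3 probe went from 2.41 to 0.98 without wild type hepatocytes and counts as kept. Another 3 changed sign, none of them called in either setting: Foxj1 (-0.02 without mutant hepatocytes, up to 0.69 without wild type hepatocytes), and dim probes of Elf3 (-0.10) and Sox4 (-0.07) with median scaling. Median scaling shifted the median of all probes to -0.08.

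Against 590 probes called higher in EpCAM+ cells, a floor at 1 gave 1064, the group filter 1382, no detection filter 157 and array weights 160. Against 951 called lower, the same group filter gave 1474, no detection filter 421 and weights 505. Leaving out 1 array gave 67 to 1072 higher and 295 to 2777 lower. Member genes called higher were 2, 4 with the group filter and 1 with no detection filter, and 1 to 3 higher and 1 to 2 lower with 1 array left out. For the mutants over DDC, 5 probes called higher became 2 with own quantile normalization, 0 with median scaling, a floor at 1, eBayes without trend or 1 probe a gene, 8 with normexp, 3 at a detection p under 0.01, 9 with no filter, 11 with weights and 2 with only EpCAM+ arrays (0 to 5 with 1 array left out). The 420 called lower became 0 with median scaling or a floor at 1, 245 at a detection p under 0.01, 667 with no filter, 22 without trend and 68 with 1 probe a gene (0 to 691 with 1 array left out). No member was among them under the main setting. The causes were not tested.

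Of single-array counts over 2-fold, median scaling turned 3 lower into 1 for Alb-Cre+/+ and for DDC over wild type hepatocytes, 1 lower into 0 for mutant over wild type hepatocytes, 1 lower into 2 for Alb-Cre+/+ EpCAM+ cells over mutant hepatocytes, and 1 higher into 0 for Alb-Cre+/- over DDC. Averaging all probes of a gene, dim ones included, gave 2 in place of 4 higher for MX1-Cre over wild type, 1 in place of 2 higher for mutant hepatocytes, and 0 in place of 1 lower for Alb-Cre+/+ over mutant hepatocytes, 1 higher for Alb-Cre+/+ and for Alb-Cre+/- over DDC, and 2 lower for MX1-Cre over DDC. Normexp gave 2 lower in place of 1 for mutant hepatocytes. No paired analysis was possible because each condition is 1 array and the labels carry no replicate numbers. The floor of 115 limits what can be said of Ehf, Foxj1 and every second probe that is not above background.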
